A study of Mus musculus with 26 samples.

Results

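The genes described here are the mouse zinc finger genes whose symbol is Zfp9 followed by 2 digits, all 40 of them among the 16344 complete gene rows of the count table, chosen by name alone. Most genes of this naming series are annotated as zinc finger genes of the KRAB type. KRAB zinc finger proteins bind DNA through an array of C2H2 fingers and, through the KRAB domain, recruit the corepressor TRIM28 (KAP1), which in turn brings in the histone methyltransferase SETDB1, HP1 proteins and chromatin remodellers, so that bound sites take on repressive H3K9 methylation. The family is large, young and clustered by position, many members bind transposable elements, and their silencing is of interest in germ cells, which erase DNA methylation during their passage through the fetal gonad. Clusters of these genes on chromosomes 2 and 4 are known from deletion studies in embryonic stem cells for silencing retrovirus-like elements. No protein sequences were used here, so the KRAB domain was not checked in the members.

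The cells came from ovaries of female fetuses of BVSC transgenic mice, which carry the reporters Blimp1-mVenus and Stella-ECFP. Blimp1 (Prdm1) and Stella (Dppa3) mark primordial germ cells. Gonads of several embryos were pooled at each stage, digested with trypsin and sorted, single cells were picked by mouth, and 3′-enriched molecules were counted with unique molecular identifiers (UMIs) by a modified STRT-seq protocol. The 1881 cells of 26 libraries cover 8 stages from E11.5 to E18.5, counted from the vaginal plug. The sort gates were BVSC (both reporters, 1302 cells), Negative (neither reporter, 529 cells) and BV (50 cells, named for the Blimp1 reporter alone). All groups carry the same transgenes, and no mutant or treated animals are compared.

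UMI counts were summed over the cells of 1 library, stage and gate, which gave 18 BVSC pools of 26 to 96 cells and 17 Negative pools of 8 to 48 cells. Levels are CPM, UMIs of a gene scaled to a pool's deposited UMI total. The library is the replicate. The labels do not tie libraries to separate animals, and each p-value therefore reflects only how far libraries varied, which may be a technical spread. Pools held between 700825 and 27498626 UMIs, and cells had a median of 214706. The gates matched their markers: the summed germ cell markers exceeded the summed gonadal somatic markers in 98.7% of BVSC cells and in 3.78% of Negative cells. The 7 measured germ cell markers (of 10 listed) summed to 1171 to 3458 CPM in BVSC pools and to 20.7 to 623 CPM in Negative pools, so Negative pools carried some germ cell RNA. The 10 measured somatic markers (of 12) summed to 1450 to 2518 CPM in Negative pools and 14.6 to 240 CPM in BVSC pools. Ddx4, Dazl, Pou5f1, Gata4 and Foxl2 were not analysed here. In a pool, fewer cells of a type and less RNA per cell cannot be told apart.

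By position (GENCODE vM21, GRCm38), the members fall into 12 groups when neighbours up to 3 Mb apart are joined. The largest held 16 members at chr4:145510759-147848366, the next 10 members at chr2:175372436-178078476, and the next one held Zfp977, Zfp976, Zfp975 and Zfp936 at chr7:42579783-43192109. The other 10 members lay alone or in a pair on chromosomes 2, 5, 6, 7, 8 and 10. All 40 are annotated as protein-coding. These groups were drawn from the annotation with the levels already known. Within the spans, 18 other genes of the table lay in the chromosome 4 group and 30 in the chromosome 2 group.

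RefSeq start-site windows (250 bases before to 50 after the start, GRCm38.p6) were given for 33 of the 40 members, 40 windows in all. The windows below are those of 3 chromosome 4 genes that were high in early germ cells, of 1 chromosome 2 gene that was higher in somatic cells, and of the chromosome 7 gene with the smallest adjusted p between gates. Capitals mark matches to GGGCGG and GGAAGTG on either strand (Zfp973 and Zfp936 have none), and sequences run 5′ to 3′ on the gene's strand. The coordinates are chr4:147642459-147642758 (minus strand) for Zfp979, chr4:147553027-147553326 (plus) for Zfp985 and chr4:146514670-146514969 (plus) for Zfp981. Those of Zfp973 are chr2:176670272-176670571 (plus) and those of Zfp936 are chr7:43177340-43177639 (plus). The windows of Zfp981 and Zfp936 lay inside the annotated genes, whose spans begin at chr4:146502027 and chr7:43114229.
Zfp979: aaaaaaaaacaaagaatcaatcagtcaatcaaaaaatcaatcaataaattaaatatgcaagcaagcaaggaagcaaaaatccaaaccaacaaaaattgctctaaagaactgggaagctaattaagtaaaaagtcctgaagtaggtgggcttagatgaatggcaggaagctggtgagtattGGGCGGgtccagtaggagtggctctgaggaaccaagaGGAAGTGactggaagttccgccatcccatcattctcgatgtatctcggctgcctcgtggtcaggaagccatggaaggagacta
Zfp985: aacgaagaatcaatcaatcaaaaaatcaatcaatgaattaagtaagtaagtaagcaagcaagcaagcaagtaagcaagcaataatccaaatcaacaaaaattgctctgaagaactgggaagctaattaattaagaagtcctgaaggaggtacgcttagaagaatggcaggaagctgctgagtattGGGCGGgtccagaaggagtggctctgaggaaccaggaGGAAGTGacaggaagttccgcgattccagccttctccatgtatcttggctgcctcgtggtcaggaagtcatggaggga
Zfp981: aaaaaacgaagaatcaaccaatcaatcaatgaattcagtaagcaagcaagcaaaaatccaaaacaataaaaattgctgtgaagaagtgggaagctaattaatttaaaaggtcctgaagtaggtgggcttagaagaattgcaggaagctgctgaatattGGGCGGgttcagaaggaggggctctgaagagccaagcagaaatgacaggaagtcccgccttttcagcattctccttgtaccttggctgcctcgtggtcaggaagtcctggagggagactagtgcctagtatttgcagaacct
Zfp973: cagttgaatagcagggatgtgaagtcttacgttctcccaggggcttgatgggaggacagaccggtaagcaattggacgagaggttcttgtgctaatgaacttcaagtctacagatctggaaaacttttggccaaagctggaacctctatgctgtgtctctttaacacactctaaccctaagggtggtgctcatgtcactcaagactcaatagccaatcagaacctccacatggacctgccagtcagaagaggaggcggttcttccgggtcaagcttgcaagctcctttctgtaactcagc
Zfp936: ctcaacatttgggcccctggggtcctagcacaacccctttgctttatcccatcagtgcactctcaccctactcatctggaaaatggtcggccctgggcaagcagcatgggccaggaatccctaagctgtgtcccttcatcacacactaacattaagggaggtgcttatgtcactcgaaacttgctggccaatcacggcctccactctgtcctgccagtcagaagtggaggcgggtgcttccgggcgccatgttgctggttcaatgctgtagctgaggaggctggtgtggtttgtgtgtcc

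The windows of Zfp979 and Zfp985 shared 83.2% of aligned bases, and that of Zfp981 shared 75% with Zfp979 and 73.7% with Zfp985. Over the 10 chromosome 4 genes with a window, pairwise identity ranged from 46.8% to 89.8% with a median of 53.2%. Pairs among Zfp979, Zfp980, Zfp981, Zfp984, Zfp985, Zfp987 and Zfp988 ranged from 62.6% to 89.8%. Pairs with Zfp933, Zfp982 or Zfp993 ranged from 46.8% to 53.5% with the windows used. Each gene entered with 1 window. Zfp982 had 3, and the one at its annotated start (chr4:147492167-147492466) was not the one compared. That window holds GGGCGG and GGAAGTG, and its identity with the other genes was not worked out. The window of Zfp993 lay away from its annotated gene start, inside the span of Zfp981. The ranges and the median therefore depend on the windows used. Among the 9 chromosome 2 genes pairwise identity ranged from 59.5% to 100%, with a median of 78.3%. GGGCGG, the GC box, was found in a window of 7 of the 10 chromosome 4 genes (Zfp979, Zfp980, Zfp981, Zfp982, Zfp984, Zfp985 and Zfp988), in none of the 9 chromosome 2 genes and in none of the 4 chromosome 7 genes. It occurred in 27.5% of all member windows and in 42.2% of the 13590 windows of genes in the table. GGAAGTG, a sequence of the kind bound by ETS factors, was in 27.5% of member windows and 11.7% of all windows, and on chromosome 4 in those of Zfp979, Zfp980, Zfp982, Zfp985 and Zfp987. The letters TATAAA were in 0% of member windows against 13.1% of all. Member windows had a median of 5.5 CpG dinucleotides against 10 over all windows. These matches describe the letters only. Both motifs were chosen with the levels known. The other motifs searched, also on both strands, were the E-box CACGTG and the YY1 core CCATNTT, found in 2.5% and 20% of member windows against 7.45% and 15.4% of all.

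**Figure D1:**
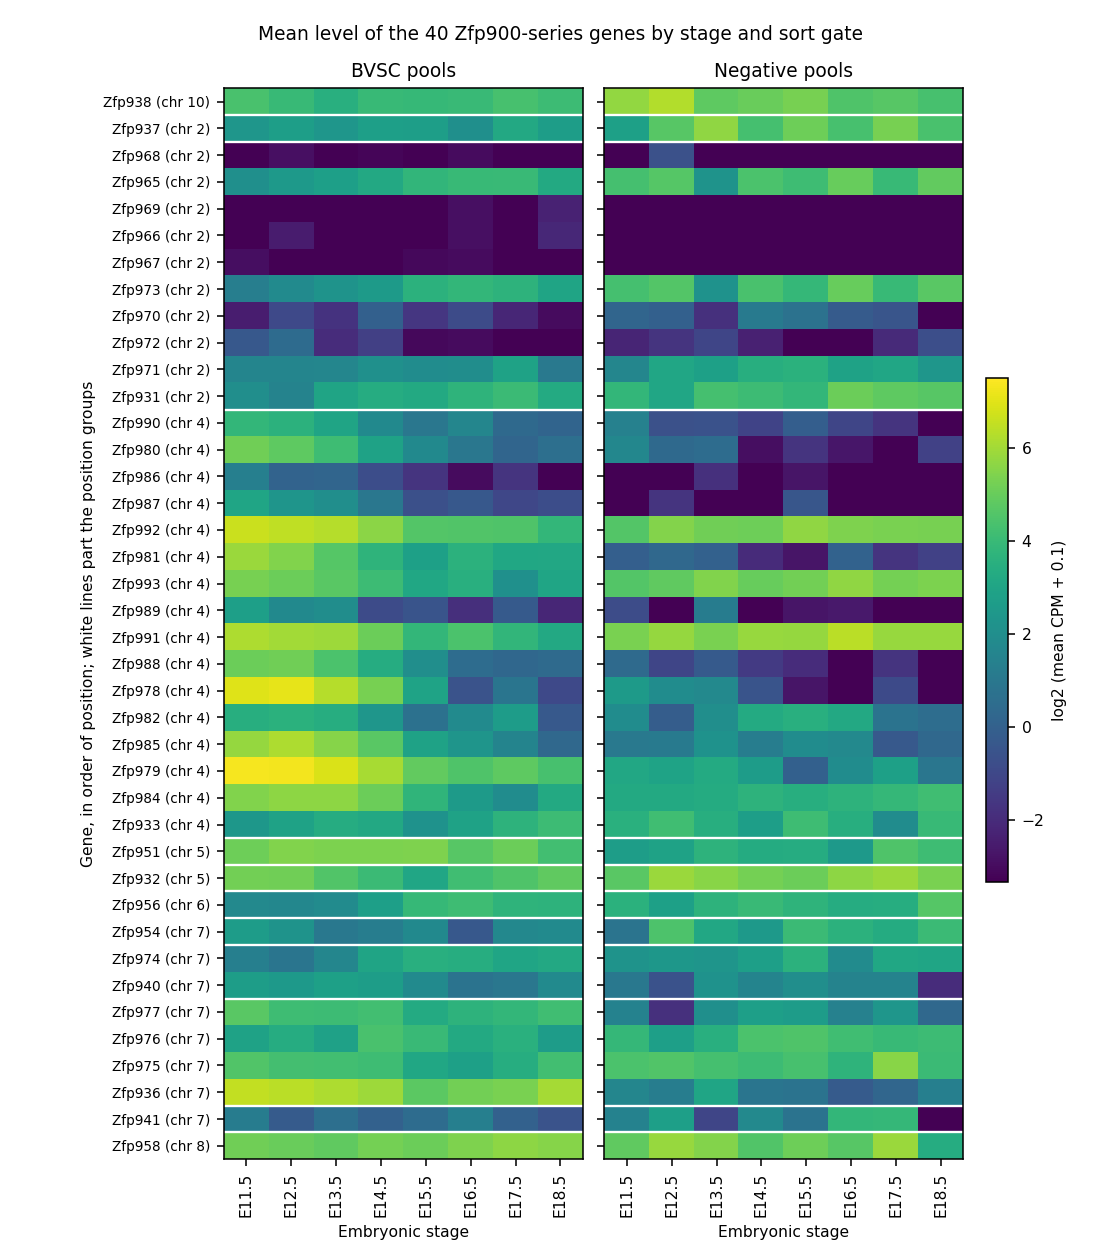
Mean level of each of the 40 genes at each stage (columns) in BVSC pools (left) and Negative pools (right), as log2 of mean CPM plus 0.1, in order of position with white lines between position groups. The chromosome 4 group is bright in early BVSC pools and darkens from E13.5 to E15.5, while Zfp991, Zfp992 and Zfp993 stay bright in Negative pools.

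The first comparison asked which members were higher in reporter-positive germ cells and which in reporter-negative somatic cells, averaged over stages. Members split both ways: 13 were higher in BVSC pools and 11 were higher in Negative pools. The chromosome 4 group held 10 of the 13 and the rest were Zfp936, Zfp977 and Zfp951. The chromosome 2 group held none of the 13. Of the 40 members 36 passed the filter on low counts, and Zfp966, Zfp967, Zfp968 and Zfp969 (7, 3, 7 and 2 UMIs in all pools) did not. The 24 called members (edgeR quasi-likelihood test, adjusted p under 0.05) stand beside a background of 64.5% of 9805 genes called, 38.7% higher and 25.8% lower, so the number called was near the background. The median log2 fold change was 0.23 over the 36 members and 0.34 over all genes. Of 162 other numbered Zfp genes tested, 50 were higher and 37 lower.

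**Figure D2:**
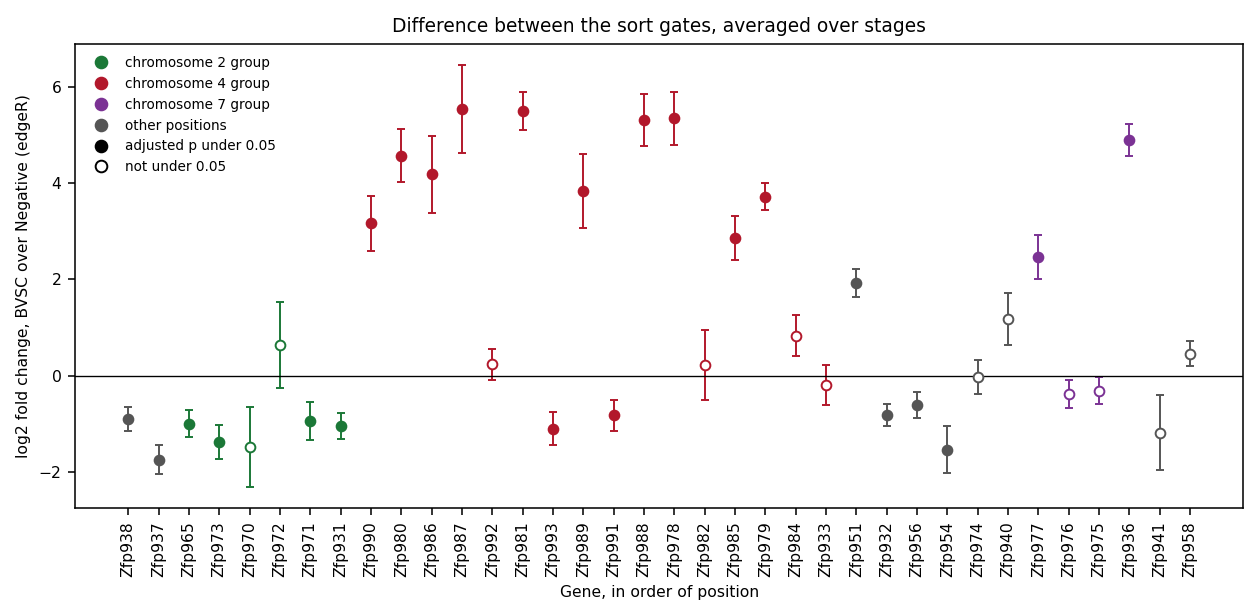
Log2 fold change of BVSC over Negative pools for the 36 tested genes in order of position, with standard errors. Filled points had an adjusted p under 0.05. Most chromosome 4 genes sit between 2.86 and 5.54, and the chromosome 2 genes sit near or below 0 except Zfp972.

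Zfp936, on chromosome 7, had the smallest adjusted p of all members. Its level was 21.005, 58.6 and 104 CPM (lowest, median, highest) in the 18 BVSC pools and 0, 2.05 and 8.22 CPM in the 17 Negative pools. Every BVSC pool lay above every Negative pool. The log2 fold change was 4.90 (SE 0.33, adjusted p = 1.6e-14, edgeR). Zfp981, on chromosome 4, also separated the gates, at 5.15, 12.97 and 66.6 CPM in BVSC pools and 0, 0.339 and 2.07 CPM in Negative pools, with no overlap. Its log2 fold change was 5.50 (SE 0.40, adjusted p = 9.5e-14, edgeR).

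Zfp979, among the 5 members with the highest mean levels, had 12.4, 58.6 and 173 CPM in BVSC pools and 0.633, 5.81 and 15.8 CPM in Negative pools. In 17 of 18 BVSC pools it was above every Negative pool, and the log2 fold change was 3.71 (SE 0.28, adjusted p = 2.2e-13, edgeR). Zfp978 ranged more widely, with 0.0742, 30.1 and 173 CPM in BVSC pools and 0, 0.304 and 8.56 CPM in Negative pools. Of the 18 BVSC pools 11 lay above every Negative pool and the others fell inside the Negative range. Its log2 fold change was 5.34 (SE 0.55, adjusted p = 2.8e-10, edgeR). Zfp988 (log2 fold change 5.31), Zfp980 (4.57), Zfp990 (3.16) and Zfp985 (2.86) were also higher in BVSC pools. Zfp987 (5.54), Zfp986 (4.18) and Zfp989 (3.84) rest on low counts. Of the 17 Negative pools 15, 15 and 13 were at 0, and mean BVSC levels were 2.52, 0.655 and 1.84 CPM. These 3 also share most of their 3′ end sequence with other genes.

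The remaining members of the chromosome 4 group did not pass in this direction. Zfp991 and Zfp993 were lower in BVSC pools, with log2 fold changes of -0.83 (SE 0.31, adjusted p = 0.021, edgeR) and -1.10 (SE 0.34, adjusted p = 0.0051, edgeR). Zfp991 had 5.18, 29.5 and 78.1 CPM in BVSC pools and 34.6, 50.6 and 83.3 CPM in Negative pools, and most of the low values were from late BVSC pools. Zfp992, Zfp984, Zfp982 and Zfp933 had log2 fold changes of 0.23, 0.83, 0.22 and -0.19 and did not pass the test. In all, 12 of the 16 were called, with a group median of 3.43. Of 12 tested genes of other names within the same span, 6 were higher and 1 was lower, so the direction was not tested as particular to the members.

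In the chromosome 2 group 4 of 6 tested members were called, all lower in BVSC pools, with a group median of -1.02. Zfp973 had 0.183, 6.75 and 19.3 CPM in BVSC pools and 4.48, 15.7 and 45.1 CPM in Negative pools, so the ranges overlapped. Its log2 fold change was -1.37 (SE 0.35, adjusted p = 0.00084, edgeR). Zfp931 (-1.05), Zfp965 (adjusted p = 0.0023, edgeR) and Zfp971 (-0.94) fell in the same direction, while Zfp970 (-1.47, adjusted p = 0.12) and Zfp972 (0.64, adjusted p = 0.54) did not pass. Of 22 tested genes of other names in that span, 11 were lower and 4 higher in BVSC pools. The summed level of the 10 chromosome 2 members was 31.6 ± 13.7 CPM (SD, n = 18) in BVSC pools and 70.9 ± 25.99 CPM (SD, n = 17) in Negative pools. Zfp965 and Zfp973 share much 3′ end sequence and had equal counts in several Negative pools, such as 176 UMIs each in library 4. In BVSC pools they could differ, as with 47 and 3 UMIs in library 1. The 4 calls, the group median and the sums may thus hold the same molecules more than once, and unequally between gates.

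Outside these 2 groups 3 of 14 tested members were higher in BVSC pools and 5 lower. Zfp977, in the chromosome 7 group with Zfp936, had a log2 difference of 2.46 (SE 0.45, adjusted p = 1.6e-05, edgeR), and Zfp951 on chromosome 5 had 1.93 (SE 0.29, adjusted p = 5.7e-07, edgeR). In the chromosome 7 group Zfp976 and Zfp975 had -0.38 and -0.31 and did not pass, and 4 of 4 tested genes of other names in that span were higher in BVSC pools. Zfp940 (1.18), Zfp974 (-0.03) and Zfp941 (-1.18) did not pass either. Zfp937 showed the largest fall, from 20.1 CPM (median, Negative) to 6.36 CPM (median, BVSC), with a log2 difference of -1.74 (SE 0.30, adjusted p = 6.2e-06, edgeR). Zfp954 (-1.54), Zfp938 (-0.91), Zfp932 (-0.82) and Zfp956 (-0.61) were lower too. Zfp932, which is known to bind endogenous retroviruses together with its paralogue Gm15446, and Zfp958 were among the 5 members with the highest mean levels. Zfp932 had 8.05, 20.5 and 49.0 CPM in BVSC pools and 18.5, 43.0 and 72.3 CPM in Negative pools, which overlap. Zfp958, on chromosome 8, had 26.3, 35.3 and 58.4 CPM in BVSC pools and 8.13, 35.4 and 87.1 CPM in Negative pools, and its log2 fold change of 0.45 did not pass (adjusted p = 0.12, edgeR).

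Within the 10 libraries that held pools of both gates, a fit with the library as a block called 13 of 35 members higher and 3 lower (Zfp931, Zfp937 and Zfp973), against 13 and 5 in the same pools without the block. The 3 were named after their values were seen. The calls in favour of germ cells thus kept their number, and the number of somatic calls did not. The shares of all genes called in the alternative fits of this paragraph are not given here. These counts are therefore not read as particular to the members. No library held pools of both gates at E15.5 or E16.5, and only 1 did at E13.5 and at E14.5. The blocked fit therefore has no pools of E15.5 and E16.5, where gate and library cannot be told apart. With DESeq2, which tested 14076 genes, the median over all genes was -0.44 and that over members -0.23 on the log2 scale, and it called 14 of 40 members higher and 12 lower. Restricting each pool to cells whose markers matched the gate left 13 higher and 11 lower, and the mean Negative level was then 1.76 CPM for Zfp936 and 1.59 CPM for Zfp978, against 2.29 and 1.84 CPM in all Negative cells.

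The second comparison asked how the members changed with stage in the BVSC gate, from the mitotic germ cells of E11.5 through meiotic entry to prophase arrest near birth. Of 36 tested members, 18 differed between stages (edgeR quasi-likelihood F test), beside a background of 41.0% of 10246 genes. All 15 that differed between E18.5 and E11.5 were lower at E18.5, and none was higher. The background for this contrast was 27.8%, with 15% higher and 12.8% lower. The chromosome 4 group made up 14 of the 15, all of its 16 members except Zfp982 and Zfp933, and the other was Zfp951. The median log2 fold change over members was -1.29, against 0.15 over all genes. Of 14 tested genes of other names within the chromosome 4 span, 6 were lower and none higher.

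The summed level of the 16 chromosome 4 genes showed the course. It was 768 and 785 CPM in the 2 BVSC pools at E11.5, and 693 and 814 CPM at E12.5. It was 482 and 636 CPM at E13.5, and 224 to 385 CPM in the 4 pools at E14.5. At E15.5 the 2 pools differed, at 70.8 and 188 CPM, and later pools lay between 88.9 and 122 CPM. The early pools stood clear of all pools from E14.5 on. In Negative pools the same sum lay between 106 and 250 CPM, with means of 139 CPM at E11.5 and 175 CPM at E18.5. From E15.5 on the stage means in BVSC pools were below those in Negative pools, whereas up to E14.5 they were above. At E15.5 the pools of the gates overlapped. The sums were not tested.

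**Figure D3:**
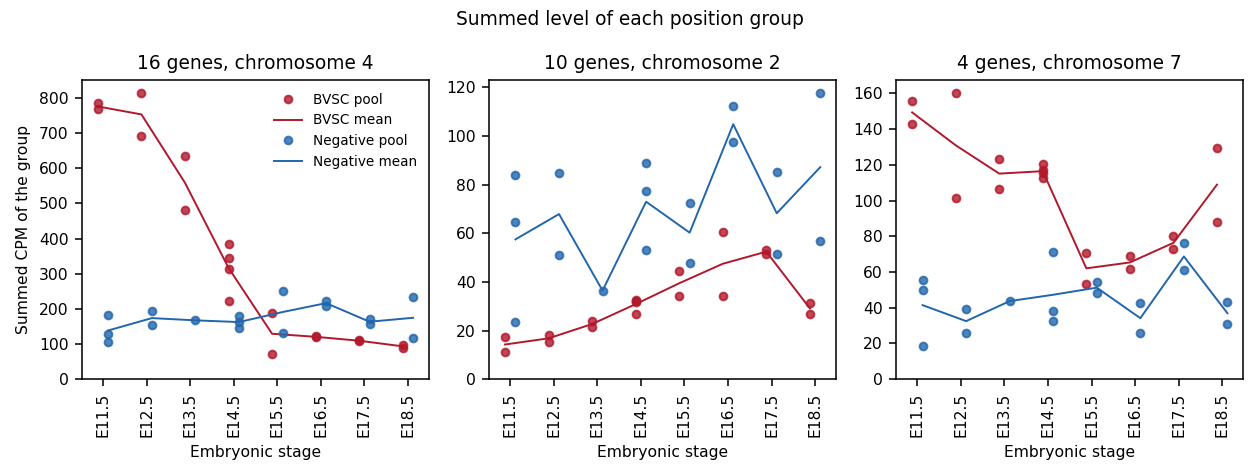
Summed CPM of the members of 3 position groups at each stage, 1 point per library pool with lines through the means, BVSC in red and Negative in blue. The chromosome 4 sum in BVSC pools drops from near 776 CPM at E11.5 to 93.5 CPM at E18.5, and the chromosome 2 sum rises to 52.5 CPM at E17.5 before it is 29.1 CPM at E18.5.

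Zfp985 had the highest F among the members. Its BVSC pools were at 52.1 and 56.6 CPM at E11.5, between 13.49 and 39.0 CPM at E14.5, and at 0.632 and 1.66 CPM at E18.5. The early and late pools were far apart, and the log2 fold change of E18.5 over E11.5 was -5.71 (SE 0.67, adjusted p = 3.6e-06, edgeR). Zfp979 went from 157 and 173 CPM at E11.5, through 51.1 to 79.8 CPM at E14.5, to 12.4 and 28.6 CPM at E18.5. Its log2 fold change was -3.27 (SE 0.44, adjusted p = 1.6e-05, edgeR), and Zfp979 remained above its Negative pools at E18.5, which were at 1.28 and 2.37 CPM. Zfp978, the other member above 100 CPM in both BVSC pools at E11.5, fell further, from 101 and 153 CPM to 0.422 and 0.440 CPM at E18.5. Its log2 fold change was -8.49 (SE 1.40, adjusted p = 0.00013, edgeR).

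Zfp992, the member of the group with no 3′ end sequence shared with another gene, had 94.5 and 104 CPM at E11.5 and 12.2 and 16.1 CPM at E18.5 in BVSC pools. The log2 fold change was -3.05 (SE 0.45, adjusted p = 4.0e-05, edgeR). Zfp984, Zfp988, Zfp981, Zfp980, Zfp991 and Zfp993 also fell, with log2 fold changes of -2.44, -4.86, -2.97, -4.81, -3.23 and -2.48. Zfp981 was at 51.9 and 66.6 CPM at E11.5, at 6.45 to 19.4 CPM in the 4 pools of E14.5, and at 8.01 and 9.83 CPM at E18.5, so its E14.5 and E18.5 pools overlapped.

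**Figure D4:**
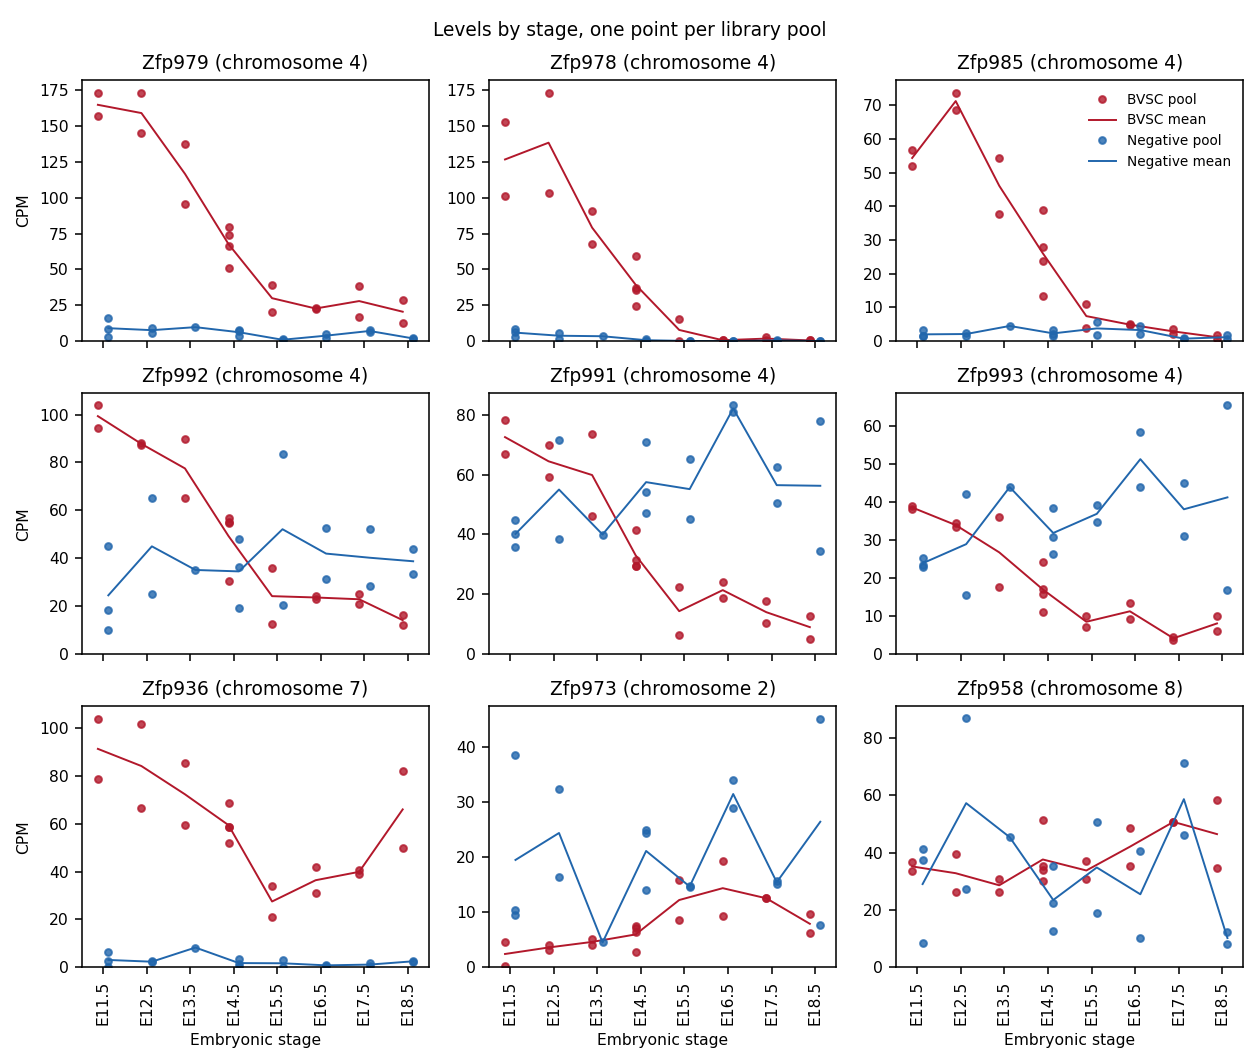
Level in CPM by stage of 9 members, 1 point per library pool with lines through the stage means, BVSC in red and Negative in blue. Zfp979, Zfp978 and Zfp985 fall in BVSC pools from levels far above the Negative pools at E11.5, and at E18.5 the pools of the gates overlap for Zfp985, while Zfp991, Zfp992 and Zfp993 start above or near the Negative pools and end below them.

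The stages were also compared in 3 windows, split at E14.5 and E16.5. Between E11.5 and E14.5, 6 members were lower and none higher, beside a background of 13.9% of genes (8.35% higher, 5.58% lower). They were Zfp932, Zfp979, Zfp980, Zfp981, Zfp989 and Zfp992. Between E14.5 and E16.5, 7 were lower and none higher, beside 16.3% (8.81% higher, 7.51% lower): Zfp975, Zfp978, Zfp979, Zfp984, Zfp985, Zfp988 and Zfp992. Gonadal somatic markers rose in the BVSC pools over the same window, where 3 of the 10 measured were higher and none lower (median log2 fold change 2.07). Their sum went from 20.8 to 36.1 CPM in the 4 pools of E14.5 to 147 and 240 CPM at E16.5, and was 29.9 and 50.5 CPM at E18.5. With only cells whose markers matched the gate, 5 members were lower and none higher in this window. The part of somatic RNA in the change was not tested. The log2 fold change of Zfp978 was -6.12 in this window (adjusted p = 0.0017, edgeR), and -1.88 in the earlier one, which did not pass (adjusted p = 0.11, edgeR). Zfp981 showed the reverse, with -2.39 in the first window (adjusted p = 0.0017, edgeR) and -0.11 in the second (adjusted p = 0.91, edgeR). Whether these genes differ from each other in timing was not tested. Between E16.5 and E18.5 edgeR called none of the 36 members beside a background of 1.23% (0.361% higher, 0.869% lower), with 4 at an unadjusted p under 0.05, and DESeq2 called 2. These window counts were sensitive to single libraries. The 6 became 3 without library 1, 4 or 14, 2 lower and 1 higher without library 7, 11 without library 6 or 26, and 12 without library 16 or 18. The 7 became 4 without library 5 or 20 and 3 without library 22.

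The stage of the highest mean was E11.5 for 16 of the 36 tested members and E12.5 for 7, and these 2 stages held 15 of the 16 chromosome 4 genes. The last, Zfp933, was highest at E18.5 with 16.8 CPM, and it did not differ between stages (adjusted p = 0.42, edgeR). With 2 pools at most stages the peak was clear of the pools of every other stage for 8 members only, namely Zfp954, Zfp980, Zfp981, Zfp985, Zfp986, Zfp987, Zfp992 and Zfp993. For Zfp985 this peak was E12.5, and for the other 7 it was E11.5. For the other 28 the peak overlapped the pools of at least 1 other stage, as for Zfp979 with means of 165 CPM at E11.5 and 159 CPM at E12.5. In Negative pools the peak was clear in this way for 5 of the 36. For 3 of these, Zfp936, Zfp986 and Zfp989, it was at E13.5, where that gate had only 1 pool. The share over all genes was not worked out, so the 8 are not read as many or few.

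In the chromosome 2 group the highest means of Zfp931, Zfp965 and Zfp971 were at E17.5 and that of Zfp973 at E16.5, but none of the 6 tested members differed between stages, with adjusted p values of 0.10, 0.22, 0.84 and 0.29 for these 4 (edgeR). Their summed BVSC level had means of 14.3 CPM at E11.5, 30.9 CPM at E14.5, 52.5 CPM at E17.5 and 29.1 CPM at E18.5. Off both groups Zfp936 differed between stages (adjusted p = 0.0021, edgeR), with 91.4 CPM at E11.5, 27.5 CPM at E15.5 and 66.0 CPM at E18.5. Zfp956 on chromosome 6 also differed (adjusted p = 0.019, edgeR), with 3.32 CPM at E11.5 and its highest mean of 17.6 CPM at E16.5.

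In the Negative gate no member of 30 tested differed between stages by edgeR, where 2 had an unadjusted p under 0.05, the background was 3.35% of 8955 genes and DESeq2 called 1. The contrast of E18.5 with E11.5 called none of 30 beside a background of 3.94% (2.48% higher, 1.46% lower), with 3 at an unadjusted p under 0.05 and 1 by DESeq2. Negative pools held fewer cells, 8 to 48 against 26 to 96.

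Whether the difference between gates depended on stage was tested directly with the interaction of gate and stage. Of 36 members 5 passed, beside a background of 8.18% of 11291 genes: Zfp984, Zfp985, Zfp991, Zfp992 and Zfp993, all in the chromosome 4 group. Zfp991 had 67.0 and 78.1 CPM in BVSC pools at E11.5 and 35.7 to 44.8 CPM in the 3 Negative pools there. At E18.5 it had 5.18 and 12.9 CPM in BVSC pools and 34.6 and 78.0 CPM in Negative pools. The BVSC pools were thus above the Negative pools at E11.5 and below them at E18.5, and the adjusted p of the interaction was 0.00087 (edgeR). Zfp992 and Zfp993 crossed in the same way. The pools of the gates did not overlap for Zfp992 at either end, with 94.5 and 104 CPM in BVSC pools against 9.99 to 45.3 CPM in Negative pools at E11.5, and 12.2 and 16.1 CPM against 33.6 and 44.0 CPM at E18.5. Zfp993 was at 38.1 and 39.0 CPM in BVSC pools and 22.8 to 25.3 CPM in Negative pools at E11.5. At E18.5 Zfp993 had 6.01 and 10.1 CPM in BVSC pools and 16.9 and 65.5 CPM in Negative pools, which differed widely. Zfp984 had 43.0 and 45.1 CPM in BVSC pools against 3.80 to 19.98 CPM in Negative pools at E11.5, and 4.21 and 14.55 CPM against 17.7 and 17.96 CPM at E18.5, so it crossed too. Zfp985 did not, since its BVSC and Negative pools overlapped at E18.5. Without library 7, which holds 1 of the 2 BVSC pools at E11.5, the number passing was 3, and Zfp992 and Zfp993 had adjusted p values of 0.11 and 0.065 (edgeR).

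At the level of single cells, thinned to 100000 UMIs each, the fall appeared as fewer chromosome 4 genes seen per cell. The median BVSC cell had a UMI of 11 of the 16 genes at E11.5 (124 cells), 6 at E14.5 (233 cells) and 2 at E18.5 (81 cells). The median Negative cell had 4 at E11.5 (23 cells) and 3 at E18.5 (25 cells). Shallower cells were left out, 192 of 1302 BVSC and 147 of 529 Negative cells. Zfp978 had a UMI in 96.8% of BVSC cells at E11.5 (95% exact binomial interval 91.9 to 99.1, counting error only), in 58.8% at E14.5 and in 3.70% at E18.5 (0.770 to 10.4). Over all stages the thinned share was 49.5% in BVSC and 6.54% in Negative cells, and unthinned it was 50.8% and 10.6%, with median depths of 248294 and 169412 UMIs. For Zfp936 the thinned shares were 71.2% in BVSC and 9.95% in Negative cells, and unthinned they were 76.1% and 17.6%. The Negative shares include germ cell RNA in that gate, whose part was not tested.

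**Figure D5:**
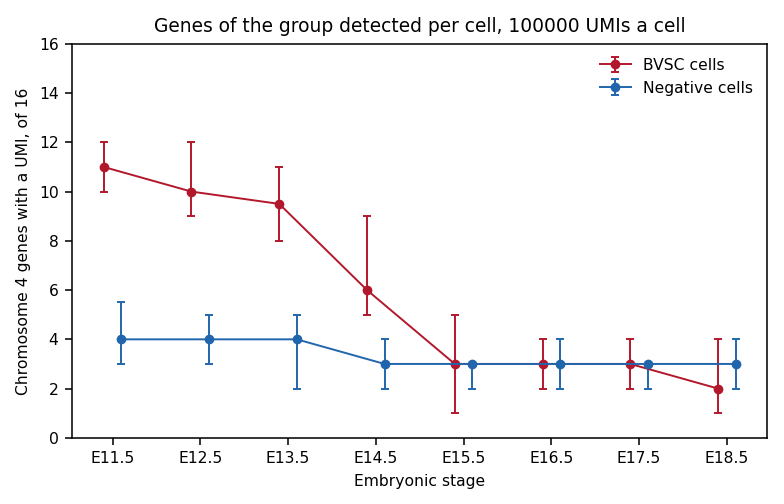
Number of the 16 chromosome 4 genes with at least 1 UMI per cell at 100000 UMIs a cell, by stage. Points are medians and bars run from the lower to the upper quartile, with BVSC in red at 11 genes at E11.5 and 2 at E18.5 and Negative in blue at 3 or 4 throughout.

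Many members share sequence at the 3′ end, where the molecules were counted. Of the 31-base words in the last 500 bases of each member's transcripts, the share also present in another gene was 0% for Zfp992 and Zfp940, 27.6% for Zfp979, 32.5% for Zfp936 and 39.6% for Zfp985. It was 90.02% for Zfp978, 80.6% for Zfp980 (both mostly with Zfp600), 96.1% for Zfp993 (all with Zfp991) and 96.8% for Zfp965 (mostly with Zfp973). Zfp986 shared 96.9% (mostly with Zfp988), Zfp987 84.4%, Zfp989 76.6% and Zfp988 64.8% (mostly with Zfp987). How reads with several matches were counted is not given in the sources used here, so levels of the highly shared members are uncertain, and those of Zfp991 and Zfp993 or of Zfp965 and Zfp973 cannot be read as separate. Zfp965 and Zfp973 had equal counts in several Negative pools, such as 138 UMIs each in library 17. In the BVSC pool of library 3 they had 152 and 91 UMIs. Sums over a position group, and counts of called members in the chromosome 4 group, may therefore hold the same molecules more than once. Exons of Zfp973, Zfp984, Zfp956 and Zfp941 overlap another gene on the same strand, and those of Zfp974 one on the opposite strand. Without the strand setting, which is not given either, these counts are uncertain too.

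The corepressors through which KRAB proteins act were read from a list of 30 genes, of which 12 were in the table. In the gate comparison 7 were higher in BVSC pools and 1 lower, beside the background of 38.7% of genes higher and 25.8% lower, with a list median of 0.44 against 0.34 over all genes. Setdb1, the H3K9 methyltransferase, had the largest difference, at 68.9 ± 30.1 CPM (SD, n = 18) in BVSC and 27.3 ± 13.47 CPM (SD, n = 17) in Negative pools. Its log2 fold change was 1.40 (adjusted p = 4.3e-06, edgeR). The histone deacetylases Hdac2 (0.86) and Hdac1 (0.83) followed, then the histone chaperone Rbbp4 (0.53), the HP1 protein Cbx3 (0.47) and Trim28 (0.45). Smarcad1 (0.43) was also higher, and Atf7ip, a partner of SETDB1, was lower (-0.41, adjusted p = 0.049, edgeR). Between E18.5 and E11.5 in BVSC pools 5 of the 12 were lower and none higher, beside 12.8% of genes lower: Trim28 (-1.44), Cbx3 (-1.47), Hdac1 (-1.44), Smarcad1 (-1.32) and Mbd3 (-1.50). Trim28 was also lower in Negative pools (-1.21, adjusted p = 0.028, edgeR). The interaction of gate and stage passed for 2 of the 12, beside 8.18% of genes. They were Trim28 (adjusted p = 0.0214, edgeR) and Cbx3 (adjusted p = 0.0210, edgeR), so their gate differences varied with stage.

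Of 10 other KRAB zinc finger genes listed for their known targets, 5 were in the table and 4 could be tested between gates. All 4 were higher in BVSC pools, as were 38.7% of all genes tested: Zfp600 (3.94), which lies among the chromosome 4 genes, Zfp819 (3.82), Zfp568 (0.84) and Zfp689 (0.80). With stage, 2 of the 5 tested genes, Zfp568 and Zfp689, were lower at E18.5 than at E11.5, by log2 fold changes of -1.38 and -1.74. Zfp819 (-4.24, adjusted p = 0.072, edgeR), Zfp600 (-3.20, adjusted p = 0.0502, edgeR) and Zfp92 (-3.30, adjusted p = 0.46, edgeR) did not pass. Zfp600 holds 70.2% of the 3′ end words of Zfp978 and 72.0% of those of Zfp980. Its values may thus hold the same molecules as theirs.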

How the data were processed

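The labels' protocols describe sorted, mouth-picked single cells from pooled fetal ovaries and 3′-enriched STRT-seq libraries. Per the submitters' processing notes, the tools included CASAVA 1.8, UMI-tools, STAR and featureCounts, with build mm10; annotation, strand setting and filters were not stated in these sources. The authors deposited raw UMI counts per gene and cell and a cell table with library, stage and gate. The count table ended within a row, and genes beyond it were not analysed here; the 16344 rows held a median of 51.2% of each cell's deposited UMIs.

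Counts were summed per library, stage and gate (pools of at least 5 cells; 1 group of 2 cells was unused) and tested with edgeR 4.0.16 (TMM, filterByExpr, quasi-likelihood, Benjamini-Hochberg over all genes, threshold 0.05; SE from the F statistic). Alternatives were DESeq2 1.42.0, upper-quartile scaling, no filter, marker-matched cells, pools of at least 10 cells, a library block, libraries merged by deposited replicate (added after seeing the data, as was the same-pool fit without the block) and leaving out each library. The fit was checked on simulated data: in the gate comparison (8947 genes) 100% of genes with a log2 change of 1 were recovered, and for a log2 change of 2 the share was 93.5% for stage in BVSC pools and 96.5% for E18.5 against E16.5 (9562 genes) and 62% for the interaction (9766 genes). Only genes with many UMIs were changed, and all counts were drawn with the same dispersion and no library effect. These shares therefore do not show how often a true change is found in members with low counts or a wide spread.

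Named members were the up to 10 called with the largest gate difference, the up to 10 called with the highest stage F and the 5 with the highest mean CPM; other members named were chosen after their values were seen. The members and lists were chosen with earlier results of these data known. Immune and endothelial marker sums in BVSC pools were at most 186 and 4.05 CPM, and in Negative pools 306 and 75.4 CPM; erythroid sums reached 311 and 765 CPM.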

Additional observations from a re-analysis of the deposited data

Results flagged for a closer look

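In 5 members the course with stage differed between the gates by the interaction test of edgeR, adjusted over all genes. The adjusted p was 0.0034 for Zfp984, 0.0030 for Zfp985, 0.00087 for Zfp991, 0.0074 for Zfp992 and 0.0039 for Zfp993.

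In 2 of the 17 members named by rule, 1 of the 4 BVSC pools at E14.5 lay apart from the other 3 by Dixon's criterion, which chance meets in about 1 in 20 groups. It was the same pool for both, that of library 4 (31 cells), with 0.821 CPM of Zfp990 and 30.7 CPM of Zfp992. The highest of the 4 had 4.43 CPM of Zfp990 and 56.7 CPM of Zfp992.

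The BV pools, which no comparison used, were set beside the Negative pools at E14.5 for the 10 members with the largest difference between gates. In 7 of the 10 both BV pools lay above every Negative pool of that stage. These 10 were chosen with the same Negative pools, which were at or near 0 CPM for several of them. The count is therefore no test of the BV gate, and the share over all genes was not worked out. The other 3 were Zfp986 at 0 CPM in both BV pools, Zfp989 at 0 and 0.136 CPM, and Zfp988 at 0 and 6.00 CPM. The mean of the 2 BV pools (15 and 30 cells) was 0.419 CPM for Zfp987, 7.15 CPM for Zfp981, 19.2 CPM for Zfp978, 38.5 CPM for Zfp936, 8.51 CPM for Zfp980, 34.2 CPM for Zfp979 and 1.41 CPM for Zfp990. The BVSC pools of that stage held 51.1 to 79.8 CPM of Zfp979. The BV pool at E11.5 (5 cells) had 7050 CPM of immune markers and 0 CPM of Zfp981, Zfp978, Zfp980 and Zfp985, with 2.24 CPM of Zfp936.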

How the results depend on the processing

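The counts of members higher in BVSC pools (13 to 15), of members differing with stage in BVSC pools (15 to 22) and of members lower at E18.5 than at E11.5 (10 to 16) stayed within 1.5 times under every alternative run. Members lower in BVSC pools numbered 11, but 3 with the library as a replicate block and 5 in the same pools without it; leaving out single libraries gave 9 to 11. The pairing comes from pools that share a library, which leaves out E15.5 and E16.5. The E14.5 to E11.5 count of 6 lower became 12 with DESeq2, 10 without the filter and 2 with merged libraries, and 2 to 12 over single libraries, with 0 to 1 higher; DESeq2 gave 1 higher. The E16.5 to E14.5 count of 7 became 4 with merged libraries and 3 to 8 over single libraries, and DESeq2 gave 1 higher. For E18.5 against E11.5 DESeq2 gave 1 higher and single libraries 0 to 1. For E18.5 against E16.5 DESeq2 gave 1 higher and 1 lower and no filter 1 lower. In Negative pools DESeq2 gave 1 for stage and 1 higher for E18.5 against E11.5. The interaction count of 5 became 8 with DESeq2 and 3 to 5 over single libraries. Without library 7 the gate difference of Zfp992, not called in any setting, had the value -0.0092, the reverse of 0.23, and single libraries gave up to 0.36. The causes were not tested. Shares over all genes under the alternatives are not given here, so these counts are not read as particular to the members. Low depth limits Zfp966 to Zfp969, Zfp970, Zfp972, Zfp986, Zfp987 and Zfp989, and 2 pools per stage limit the placing of peaks.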
